A study of Mus musculus with 50 samples.

Results

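The BH3-only genes encode the proteins that start cell death at the mitochondrion. In healthy cells, guardian proteins such as Bcl2, Bcl2l1 and Mcl1 hold the pore-forming effectors Bax and Bak1 in check. Stress signals raise or activate BH3-only proteins, which bind the guardians through their BH3 helix and so free the effectors to permeabilise the outer mitochondrial membrane. Colon epithelium uses this pathway to remove damaged or detached cells, and p53 is among its best known activators.

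The set was defined by gene symbol and held 8 genes of the 18193 symbols in the table: Pmaip1 (Noxa), Bbc3 (Puma), Bcl2l11 (Bim), Bid, Bik, Bmf, Bad and Hrk. They were read by 20 probe sets, each with a member as its only symbol. A probe set was tested when it exceeded the median of the whole table, a log2 intensity of 6.44, on at least 10 of the 50 arrays. By that filter 15 of the 20 were tested, and each of the 8 genes had at least 1 tested probe set. The other 5 (2 for Bcl2l11 and 1 each for Bik, Bmf and Hrk) had group means between 4.63 and 6.05 on the log2 scale and are described without a test.

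The 50 arrays measured polysomal RNA, the messages bound to ribosomes, from young adult mouse colon (YAMC) cells. This conditionally immortal line from the Immorto-mouse carries a temperature-sensitive SV40 large T antigen, tsA58, under the H-2Kb promoter. The 5 groups of 10 arrays were mp53/Ras (p53175H and RasV12 together), mp53 (p53175H with the Neo vector), Ras (RasV12 with the Bleo vector), the bleo/Neo population with both empty vectors, and the parental YAMC cells. p53175H is a hot-spot mutant of p53, and RasV12 is a constitutively active Ras. Each modified group was a polyclonal population of retrovirally infected cells, made once. All groups had 48 h at 39 °C without interferon gamma, conditions that inactivate tsA58, and 24 h in 0% serum. The labels do not say that the 10 arrays of a group were separate cultures, so the p-values reflect the spread among these arrays, which may be technical.

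Of the 50 arrays, 46 lay nearest their own group's mean. The array labelled mp53 10 lay nearest Ras, Ras 10 nearest mp53, mp53 8 nearest YAMC and YAMC 2 nearest mp53. Calls that change when these arrays are left out are given beside the member concerned. Among 12 markers of colon epithelium, 5 to 7 per group had means above the table's median. Krt8 and Krt18 were high, at 12.94 and 12.67 in mp53/Ras cells, while Cdh1, Vil1, Cdx1 and Lgr5 were below the median on all 50 arrays. Of 10 markers of fibroblasts and smooth muscle 6 or 7 were above it, so the labelled tissue was only partly visible in its markers. As a mean log2 level per array, the epithelial markers lay between 7.39 and 7.56 in mp53/Ras arrays, 7.02 and 7.40 in mp53, 7.12 and 7.48 in Ras, 7.29 and 7.50 in bleo/Neo, and 7.03 and 7.12 in YAMC. The fibroblast and smooth muscle markers lay between 9.50 and 9.78 in mp53/Ras, 9.45 and 10.29 in mp53, 9.26 and 9.99 in Ras, 9.34 and 9.81 in bleo/Neo, and 9.88 and 10.19 in YAMC. The part of either list in the results below was not tested. A fall in such bulk RNA does not tell fewer cells of a type from less RNA per cell, nor less message from less of it on ribosomes.

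Promoter windows of RefSeq (GRCm38.p6) were matched by symbol for 6 of the 8 genes, all but Pmaip1 and Bik. The 250 bases upstream of the outermost start are printed for 3 members that differ in direction in cells with both oncogenes. They are Bcl2l11 and Bmf, each with a probe set that fell, and Bad, with both that rose. Hrk, whose tested probe set rose, also has such a window, which is not printed. The printed windows lie at chr2:128125788-128126037 (plus strand), chr2:118549687-118549936 (minus strand) and chr19:6941611-6941860 (plus strand). Capitals mark matches on either strand to the motifs searched, printed in the direction of the gene.
Bcl2l11: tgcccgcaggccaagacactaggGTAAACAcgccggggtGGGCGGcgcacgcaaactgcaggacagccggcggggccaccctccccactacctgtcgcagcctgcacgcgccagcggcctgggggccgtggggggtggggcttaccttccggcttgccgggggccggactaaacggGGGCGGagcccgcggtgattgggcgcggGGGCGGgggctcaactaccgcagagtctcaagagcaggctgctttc
Bmf: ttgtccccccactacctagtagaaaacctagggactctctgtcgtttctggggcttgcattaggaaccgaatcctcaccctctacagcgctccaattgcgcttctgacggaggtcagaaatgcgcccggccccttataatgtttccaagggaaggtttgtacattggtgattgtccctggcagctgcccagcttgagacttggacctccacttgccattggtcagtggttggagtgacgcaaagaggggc
Bad: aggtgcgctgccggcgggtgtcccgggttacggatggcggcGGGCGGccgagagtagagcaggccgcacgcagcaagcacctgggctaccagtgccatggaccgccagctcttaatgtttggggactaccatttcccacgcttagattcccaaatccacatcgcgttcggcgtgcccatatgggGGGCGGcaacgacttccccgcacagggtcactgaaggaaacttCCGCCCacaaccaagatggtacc
The letters searched on both strands were GGGCGG (SP1), TGACGTCA (CRE), TGANTCA (AP-1), TTTCCCGC (E2F) and GTAAACA (FOXO), with the degenerate p53 half-site searched by name. No marked match overlaps another in these windows. Bcl2l11 holds the FOXO letters from base -227 to -221 and the SP1 letters at 3 places, from -211, -74 and -46. Bad holds the SP1 letters at 3 places, from -209, -66 and -23, the last on the opposite strand. The printed Bmf window holds none of the letters searched. Another of the 3 Bmf windows, not printed, holds a p53 half-site from base -213 to -204. Of all 32851 windows of this kind, 32.7% hold the SP1 letters, 1.55% CRE, 6.75% AP-1, 0.895% E2F, 3.17% FOXO and 7.13% the p53 half-site. A match describes the letters and is not a measured binding site.

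The 8 genes differed widely in how much their levels moved between groups. The group means of Pmaip1 spanned 4.83 on the log2 scale, against 1.20 for the next widest probe set, Bmf 1454880_s_at, and 0.36 for Bbc3. Of the 15 tested probe sets 11 exceeded the table's median on all 50 arrays, among them the dim ones of Bik and Hrk. Pmaip1 exceeded it on 45.

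**Figure D1:**
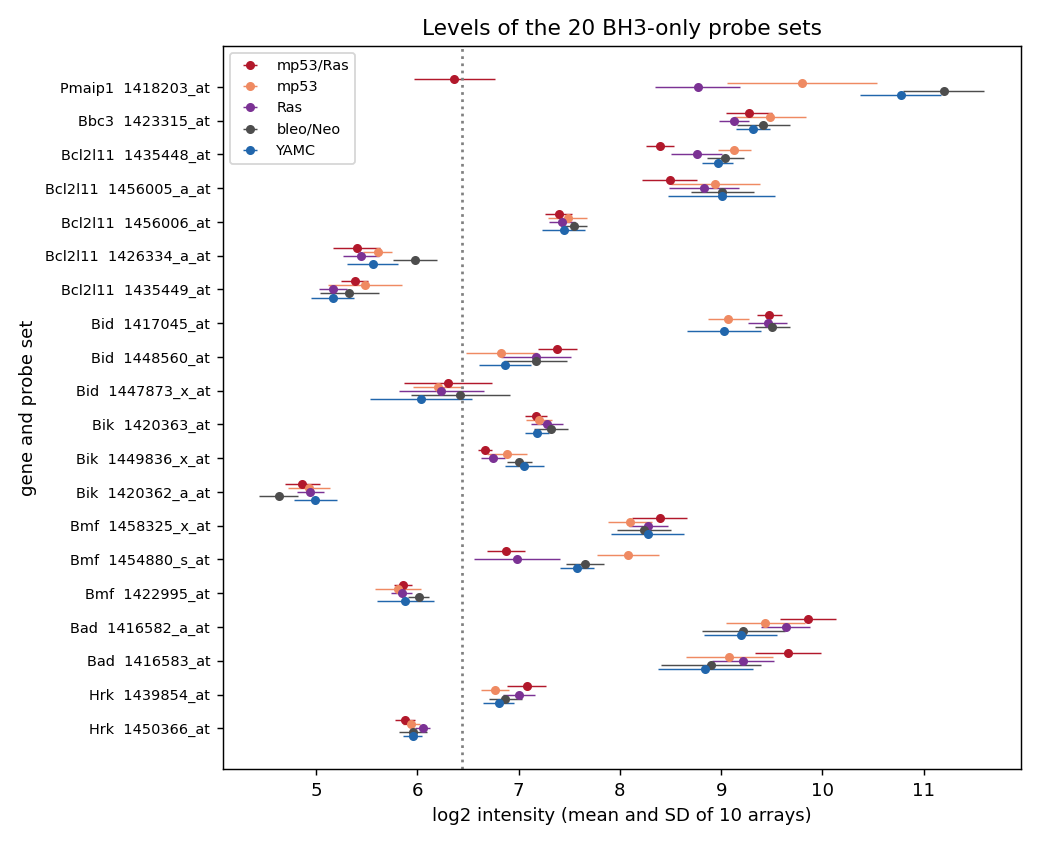
Mean and SD of the log2 intensity over 10 arrays for the 20 probe sets of the 8 genes (rows), in the 5 groups (colours); the dotted line is the median of the whole table, 6.44. Pmaip1 spans 6.37 to 11.20 between groups, and the other 19 probe sets stay within a much narrower range.

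Pmaip1 encodes Noxa, a p53 target that binds chiefly the guardian Mcl1, and it fell in every oncogene group. It was read by a single probe set, 1418203_at. The log2 intensity of Pmaip1 in the 10 mp53/Ras arrays ran from 5.68 through a median of 6.37 to 7.11. In mp53 arrays it ran from 8.20 through 9.80 to 11.28, and in Ras arrays from 8.30 through 8.73 to 9.84. In bleo/Neo arrays it ran from 10.64 through 11.22 to 11.88, and in YAMC arrays from 9.91 through 10.78 to 11.36. All 10 mp53/Ras arrays lay below every array of the other 4 groups. On the linear scale the mean Pmaip1 intensity was 85.4 in mp53/Ras, 1002 in mp53, 455 in Ras, 2430 in bleo/Neo and 1811 in YAMC. The order of the levels was thus mp53/Ras, Ras, mp53, YAMC and bleo/Neo.

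Against bleo/Neo, Pmaip1 was 28.4-fold lower in mp53/Ras cells, a log2 difference of -4.83 ± 0.21 (SE, n = 10 each, limma adjusted p = 2.94e-25). Only 3 of the 24458 tested probe sets fell more. It was 5.39-fold lower in Ras cells (-2.43, adjusted p = 8.65e-14), where no array overlapped bleo/Neo either. In mp53 cells it was 2.63-fold lower (-1.40, adjusted p = 5.18e-07), and the groups overlapped through the array mp53 8, at 11.28. Against YAMC the differences were -4.41 in mp53/Ras (adjusted p = 1.43e-22, 1 probe set falling more), -0.98 in mp53 (0.000553) and -2.01 in Ras (7.32e-11). The vector population was 0.42 above YAMC, which did not pass (adjusted p = 0.119), although it did without the arrays mp53 10 and Ras 10, which narrows the pooled spread (0.0483). The ranges of these neighbours in the order overlapped. The mean of Pmaip1 in mp53/Ras, 6.37 ± 0.40 (SD), lies at the median of the table, and the arrays carry no detection calls. How much of that intensity is background, and how far it alters the difference, was not tested.

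**Figure D2:**
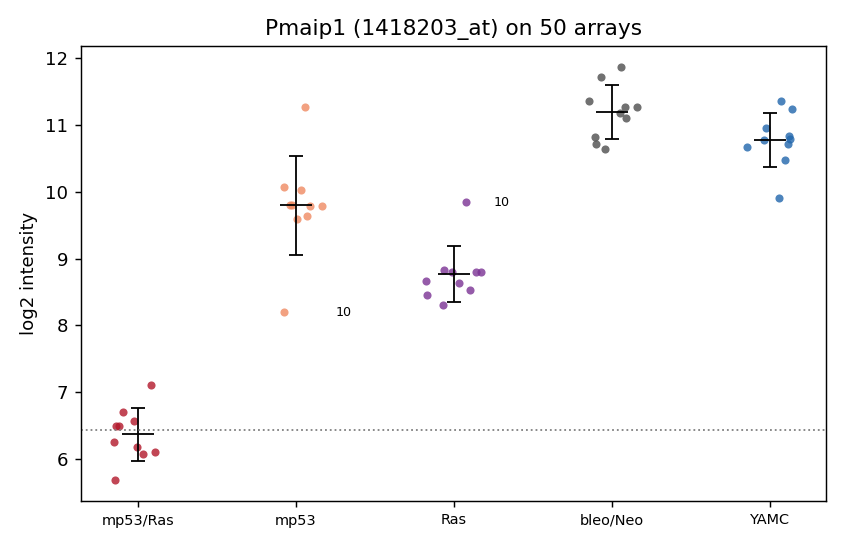
Log2 intensity of Pmaip1 on each of the 50 arrays (points) by group, with mean and SD; the array labelled 10 is marked in mp53 and Ras, and the dotted line is the table's median, 6.44. The 10 mp53/Ras arrays, from 5.68 to 7.11, lie below all others, Ras 10 (9.84) lies within the mp53 range, and mp53 10 (8.20) lies just under the lowest Ras array (8.30).

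Pmaip1 was lower with both oncogenes than with either. mp53/Ras cells were below mp53 cells by 10.8-fold (-3.43, adjusted p = 2.07e-18) and below Ras cells by 5.28-fold (-2.40, adjusted p = 1.52e-12), with no overlap in either comparison. The Ras and mp53 ranges overlapped, and the array labelled 10 sat at the low end of mp53 (8.20) and at the high end of Ras (9.84). Without these arrays mp53 averaged 9.98 ± 0.51, from 9.60 to 11.28, and Ras 8.65 ± 0.18, from 8.30 to 8.83 (SD, n = 9 each), with no overlap. Against bleo/Neo the differences were then -1.22 in mp53 (adjusted p = 1.61e-07) and -2.55 in Ras (2.23e-17). The arrays left out were picked by their values in these same data. The lack of overlap and the smaller p-values follow in part from that choice. The difference between mp53 and Ras was not itself tested.

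Across all members, mp53/Ras cells showed changes in both directions rather than a general fall. The same held among all tested probe sets, so it is not particular to the members. Against bleo/Neo, 9 of the 15 tested probe sets passed an adjusted p of 0.05, 3 higher and 6 lower. Of all tested probe sets 51.5% passed in this comparison, 26.8% higher and 24.7% lower. The members' median difference was -0.14, beside 0.02 over all tested probe sets. The higher ones were both of Bad and 1 of Hrk; the lower ones were Pmaip1, 2 of Bcl2l11, 2 of Bik and 1 of Bmf. Arrays of the groups did not overlap for 4 of the 15 (Pmaip1, Bcl2l11 1435448_at, Bik 1449836_x_at and Bmf 1454880_s_at), beside 15.4% of all tested. Against YAMC 10 of 15 passed, 5 in each direction, beside 54.6% of all tested, of which 29.2% were higher and 25.4% lower. There 5 of 15 did not overlap, the same 4 and Bid 1448560_at, beside 14.3% of all tested.

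**Figure D3:**
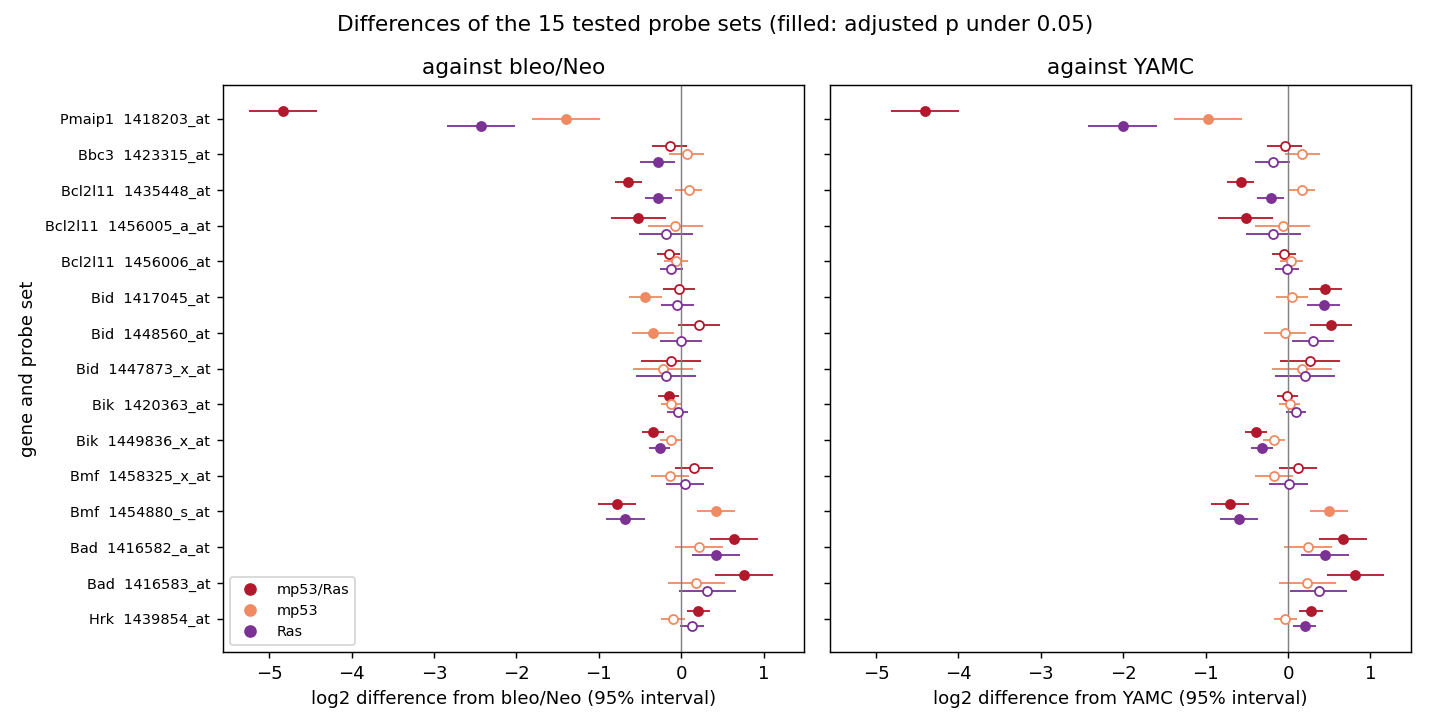
Log2 difference with its 95% interval for the 15 tested probe sets (rows) in mp53/Ras, mp53 and Ras cells (colours), against bleo/Neo (left) and against YAMC (right); filled points passed an adjusted p of 0.05. Pmaip1 stands at -4.83 and -4.41 in mp53/Ras, -2.43 and -2.01 in Ras and -1.40 and -0.98 in mp53, while every point of the other genes lies between -1 and 1.

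Bcl2l11 encodes Bim, which binds all the guardians and whose transcription FOXO factors promote. Of its 5 probe sets 3 were tested, and they did not move alike. The probe set 1435448_at fell in mp53/Ras cells: its arrays ran from 8.06 through a median of 8.42 to 8.61 in mp53/Ras, 8.84 through 9.13 to 9.39 in mp53 and 8.40 through 8.69 to 9.31 in Ras. In bleo/Neo they ran from 8.66 through 9.07 to 9.34, and in YAMC from 8.63 through 8.96 to 9.18. All mp53/Ras arrays lay below all bleo/Neo, mp53 and YAMC arrays, and overlapped the lower part of Ras. The difference from bleo/Neo was -0.64 ± 0.08 in mp53/Ras (adjusted p = 4.83e-09), -0.28 in Ras (0.00584) and 0.09 in mp53 (0.431, not passed). Against YAMC it was -0.57 in mp53/Ras (9.68e-08) and -0.21 in Ras (0.0419). The probe set 1456005_a_at fell as well in mp53/Ras, by -0.52 ± 0.17 against bleo/Neo (0.00835) and -0.51 against YAMC (0.00881). The dimmer 1456006_at did not pass in any comparison over all arrays (-0.15 for mp53/Ras against bleo/Neo, adjusted p = 0.0762), but passed there without the 4 arrays nearest another group (0.044). What transcripts each probe set reads was not examined.

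Bmf encodes a BH3-only protein that is tied to the cytoskeleton and released when cells detach. Its probe set 1454880_s_at moved in opposite directions in the 2 single-oncogene groups. It ran from 6.40 through a median of 6.90 to 7.13 in mp53/Ras arrays, 7.53 through 8.19 to 8.35 in mp53 and 6.70 through 6.84 to 8.14 in Ras. In bleo/Neo it ran from 7.45 through 7.71 to 7.94, and in YAMC from 7.27 through 7.61 to 7.78. The highest Ras value, 8.14, was Ras 10, and every other Ras array was at or below 7.07, under all bleo/Neo and YAMC arrays. The lowest mp53 values, both 7.53, were mp53 8 and mp53 10. Against bleo/Neo, Bmf fell by 0.78 ± 0.12 in mp53/Ras cells (adjusted p = 2.06e-07), rose by 0.42 in mp53 cells (0.00478) and fell by 0.68 in Ras cells (6.54e-06). Against YAMC the differences were -0.70 in mp53/Ras (2.1e-06), 0.50 in mp53 (0.00155) and -0.59 with Ras alone (6.71e-05). mp53/Ras cells were 0.11 below Ras cells, which did not pass (adjusted p = 0.577). Without mp53 10 and Ras 10 the means were 8.14 ± 0.25 in mp53 and 6.85 ± 0.13 in Ras (SD, n = 9 each), and the differences from bleo/Neo were 0.48 (1.42e-05) and -0.81 (5.82e-11). Since these arrays were picked by their values, the smaller p-values follow in part from that choice. The probe set 1458325_x_at stayed between 8.10 and 8.39 in all group means and passed only in mp53/Ras against mp53, by 0.29 (adjusted p = 0.0418, and 0.0598 without mp53 10 and Ras 10).

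Bad, whose product is held inactive by survival-factor kinases such as Akt, rose in mp53/Ras cells with both of its probe sets. Bad 1416582_a_at ran from 9.51 through a median of 9.84 to 10.33 in mp53/Ras arrays, 8.79 through 9.51 to 9.87 in mp53 and 9.33 through 9.55 to 10.11 in Ras. It ran from 8.73 through 9.24 to 10.09 in bleo/Neo and from 8.54 through 9.29 to 9.73 in YAMC. The mp53/Ras arrays were the highest as a group but overlapped every other group. The difference of Bad 1416582_a_at from bleo/Neo was 0.64 ± 0.15 in mp53/Ras (adjusted p = 0.000274) and 0.42 in Ras (0.0212). Bad 1416583_at ran from 9.21 through a median of 9.56 to 10.24 in mp53/Ras arrays, against 8.12 through 8.77 to 9.93 in bleo/Neo, and also overlapped. It was 0.76 ± 0.18 above bleo/Neo in mp53/Ras (0.000313), and against YAMC the probe sets were higher by 0.67 and 0.82 (0.000153 and 0.000125). Against mp53 they were higher by 0.42 (0.0171) and 0.58 (0.00672), which became 0.33 (0.0731) and 0.41 (0.0513) without the 4 arrays nearest another group. Against Ras neither passed (0.22, 0.306 and 0.45, 0.069), though Bad 1416583_at did with the replicate number added to the fit (0.0165).

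Bid is cut by caspase-8 downstream of death receptors and so links them to the mitochondrion. It was lower in mp53 cells than in mp53/Ras or bleo/Neo cells. Bid 1417045_at ran from 9.32 through a median of 9.48 to 9.69 in mp53/Ras arrays, 8.73 through 9.08 to 9.32 in mp53 and 9.16 through 9.48 to 9.75 in Ras. It ran from 9.27 through 9.49 to 9.77 in bleo/Neo and from 8.57 through 8.98 to 9.60 in YAMC. All mp53/Ras arrays lay above all mp53 arrays, and YAMC spread over the range of both. Against bleo/Neo, mp53 cells were lower by -0.43 ± 0.10 (adjusted p = 0.000628), while mp53/Ras differed by -0.03 (0.836, not passed). The control changed the calls: bleo/Neo was itself 0.48 above YAMC (0.000168), and against YAMC it was mp53/Ras and Ras that were higher, by 0.45 (0.000174) and 0.43 (0.000523). Bid 1448560_at fell in mp53 against bleo/Neo too (-0.34 ± 0.13, 0.0378; -0.23 and 0.115 without the 4 arrays). It rose in mp53/Ras against YAMC (0.52, 0.000727) and against mp53 (0.55, 0.000461). In Ras against YAMC it did not pass over all arrays (0.31, 0.0557). It passed there without mp53 10 and Ras 10 (0.38, 0.0149), without the 4 arrays (0.31, 0.0261) or with the replicate number added to the fit (0.043). Bid 1447873_x_at, above the table's median on 19 of 50 arrays, did not pass in any comparison.

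Bbc3 encodes Puma, a p53 target that binds all the guardians, and it stayed near 9.3 in every group. Its arrays ran from 8.99 through a median of 9.20 to 9.72 in mp53/Ras, 8.82 through 9.57 to 9.94 in mp53 and 8.84 through 9.12 to 9.42 in Ras. They ran from 9.10 through 9.41 to 9.92 in bleo/Neo and from 9.11 through 9.27 to 9.54 in YAMC, and all 5 groups overlapped. Only Ras against bleo/Neo passed (-0.29 ± 0.11, adjusted p = 0.0307). Without mp53 10 and Ras 10, mp53/Ras against mp53 passed too (-0.28, 0.0264, and -0.21, 0.108 with them). Without the 4 arrays nearest another group it was -0.37 (0.00112), and mp53 against YAMC (0.31, 0.0103) and Ras against YAMC (-0.23, 0.0362) also passed. The difference in mp53/Ras was -0.14 against bleo/Neo (0.278) and -0.04 against YAMC (0.767). So the p53 targets of the family did not move alike: in the same arrays Pmaip1 differed by -4.83. That contrast between the genes was not itself tested.

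Bik, a BH3-only protein of the endoplasmic reticulum, and Hrk, best known from neurons, were dim. Bik 1449836_x_at ran from 6.54 through a median of 6.68 to 6.76 in mp53/Ras arrays, 6.67 through 6.85 to 7.28 in mp53 and 6.55 through 6.72 to 7.02 in Ras. It ran from 6.81 through 6.99 to 7.21 in bleo/Neo and from 6.87 through 7.03 to 7.57 in YAMC. The mp53/Ras arrays lay under every bleo/Neo and YAMC array. Its difference from bleo/Neo was -0.34 ± 0.07 in mp53/Ras (adjusted p = 3.52e-05) and -0.26 in Ras (0.00143), and from YAMC -0.39 (3.86e-06) and -0.31 (0.000208) in the same groups. In mp53 against bleo/Neo it passed only without the 4 arrays nearest another group (-0.15, 0.0293). Bik 1420363_at passed only in mp53/Ras against bleo/Neo (-0.15 ± 0.06, 0.0447), and not when all probe sets were tested (0.0546). With the replicate number added to the fit, Bik 1420363_at also passed in bleo/Neo against YAMC (0.14, 0.0384). Hrk 1439854_at ran from 6.75 through a median of 7.05 to 7.46 in mp53/Ras arrays, 6.56 through 6.76 to 6.96 in mp53 and 6.82 through 6.97 to 7.24 in Ras. It ran from 6.62 through 6.88 to 7.15 in bleo/Neo and from 6.65 through 6.77 to 7.14 in YAMC. These groups overlapped, and Hrk rose in mp53/Ras by 0.21 ± 0.07 against bleo/Neo (0.0146), 0.28 against YAMC (0.00127) and 0.31 against mp53 (0.000528). In Ras cells it rose by 0.20 against YAMC (0.0243).

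**Figure D4:**
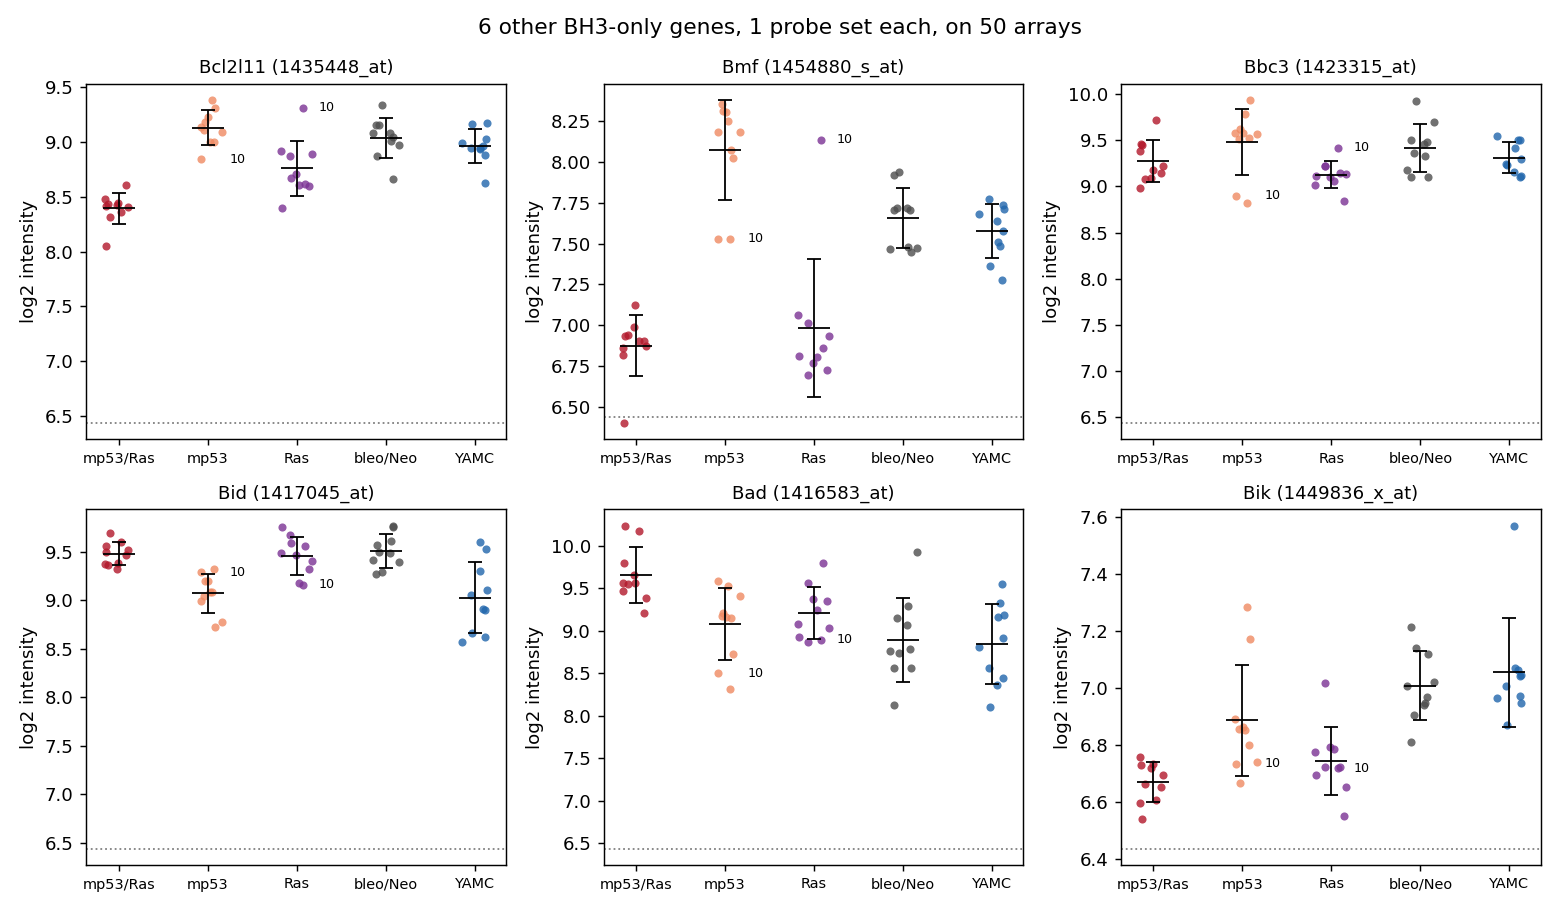
Log2 intensity of 1 probe set each of Bcl2l11, Bmf, Bbc3, Bid, Bad and Bik on the 50 arrays (points), with the group mean and SD; the array labelled 10 is marked in mp53 and Ras, the dotted line is the table's median, and each panel has its own scale. The probe set shown for a gene is the one with the largest difference over its SE in any comparison. Bmf 1458325_x_at and Bik 1420363_at, not shown, moved less than those shown. Bmf 1454880_s_at is near 8.08 in mp53 and 6.87 in mp53/Ras, while Bbc3 overlaps in all 5 groups.

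Fewer member probe sets passed with each oncogene alone than with the pair, though the difference between these counts was not tested. The same order held among all tested probe sets, so it is not particular to the members. In mp53 cells against bleo/Neo 4 of 15 probe sets passed, Bmf higher and Pmaip1 and both brighter Bid probe sets lower, beside 32.7% of all tested. In Ras cells against bleo/Neo 6 of 15 passed, Bad higher and Pmaip1, Bbc3, Bcl2l11, Bik and Bmf lower with 1 probe set each, beside 39.1%. Against YAMC 2 of 15 passed in mp53 (beside 21.6%) and 7 of 15 in Ras (beside 39.6%). In bleo/Neo against YAMC 1 of 15 passed, a Bid probe set, beside 34% of all tested. mp53/Ras against mp53 gave 11 of 15, 6 higher and 5 lower, beside 44%, and 4 did not overlap (Pmaip1, Bcl2l11, Bid and Bmf, 1 probe set each) beside 9.71%. mp53/Ras against Ras gave 2 of 15, Pmaip1 and Bcl2l11 1435448_at (-0.36, adjusted p = 0.000973), both lower, beside 19.8%.

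The design also asks whether the pair of oncogenes did more or less than the sum of each alone on the log2 scale. The non-additive term, the difference of mp53/Ras from mp53 less that of Ras from bleo/Neo, passed for 5 of the 15 probe sets, beside 22.1% of all tested. It was negative for Pmaip1 (-1.0 ± 0.30, adjusted p = 0.0109), Bcl2l11 1435448_at (-0.46 ± 0.12, 0.00318) and Bmf 1454880_s_at (-0.53 ± 0.17, 0.0183). For these probe sets the fall that went with RasV12 was larger in cells that carried mutant p53 than in cells that did not. For Pmaip1 it was -3.43 with mp53 and -2.43 without. The term did not pass for Bcl2l11 1456005_a_at (-0.27, adjusted p = 0.468), Bcl2l11 1456006_at (0.03, 0.88) or Bmf 1458325_x_at (0.25, 0.317). The term was positive for Bid 1417045_at (0.45 ± 0.14, 0.0171) and Bid 1448560_at (0.55 ± 0.18, 0.0237). Without mp53 10 and Ras 10 it was -1.06 for Pmaip1 (0.00108), and 0.46 for Bid 1448560_at, which no longer passed (0.0618). With YAMC in place of bleo/Neo, chosen after seeing the data, it was -1.42 for Pmaip1 (0.000659) and ended the calls of both Bid probe sets (-0.03, 0.932 and 0.25, 0.428).

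**Figure D5:**
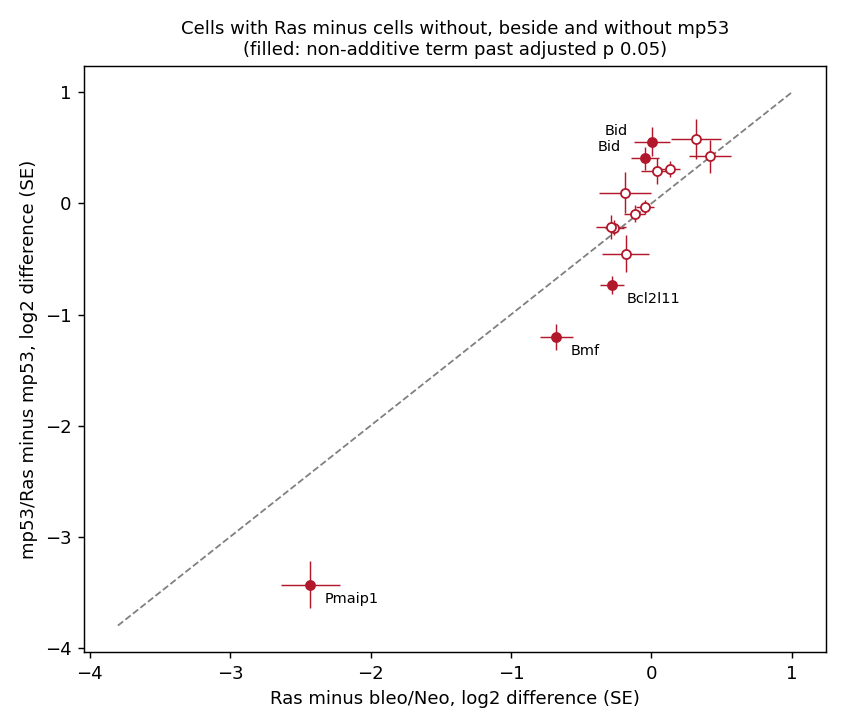
Log2 difference (± SE) of mp53/Ras minus mp53 (vertical) against that of Ras minus bleo/Neo (horizontal) for the 15 tested probe sets; the dashed line marks equal differences, and filled points passed the test of the non-additive term. Pmaip1 lies at -2.43 and -3.43, below the line, as do the filled points of Bmf and Bcl2l11, while the Bid probe sets lie above it. The points of Bmf and Bcl2l11 that did not pass lie on both sides of the line.

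The partners of the BH3-only proteins were read from lists of known genes, each gene by its brightest probe set. Beside each count below stand the shares of all tested probe sets that passed in mp53/Ras, 51.5% against bleo/Neo and 54.6% against YAMC. Of 8 guardians 4 were tested, and in mp53/Ras against bleo/Neo 2 rose, 1 fell and 1 did not pass. Bcl2 was higher by 1.06 ± 0.12 (adjusted p = 4.03e-10) and Bcl2l1 by 0.31 ± 0.07 (0.000396), while Mcl1, the main partner of Noxa, was lower by -0.31 ± 0.08 (0.00136). Their median difference was 0.23, beside 0.02 over all tested probe sets. Of 3 effectors 2 were tested and both rose: Bak1, which Mcl1 and Bcl2l1 restrain, by 0.79 ± 0.14 (4.05e-06) and its relative Bok by 0.59 ± 0.13 (0.000102). Against YAMC the same genes passed in the same directions, Bcl2 by 0.80, Bcl2l1 by 0.27, Mcl1 by -0.64, Bak1 by 0.44 and Bok by 0.29. Bnip3, a hypoxia-induced gene with a BH3-like domain, rose by 2.97 ± 0.17 against bleo/Neo and by 1.47 against YAMC, while Becn1, the other tested gene of that kind, did not pass (-0.08). Bax and the Bcl2a1 genes were not analysed here.

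A list of 10 tested genes held steps after the mitochondrion and also Casp8, which acts before it. Of these 10, 2 rose and 3 fell in mp53/Ras against bleo/Neo, and 5 rose and 3 fell against YAMC. The 5 of 10 that passed against bleo/Neo are at the share of all tested probe sets, 51.5%, and the 8 of 10 against YAMC stand beside 54.6%. Apaf1, the scaffold of the apoptosome and a p53 target, was lower by -0.65 ± 0.09 (adjusted p = 6.22e-08), and the inhibitor of apoptosis Birc2 by -0.55 ± 0.10 (1.24e-05). Birc5, or survivin, was higher by 0.30 ± 0.10 (0.0121) and Casp8, which cleaves Bid, by 0.24 ± 0.08 (0.00708). The list's median difference from bleo/Neo was 0.05. Against YAMC, Apaf1 (-0.89), Birc2 (-0.81) and Birc5 (0.86) passed in the same directions, while Casp8 did not pass (0.06, adjusted p = 0.546).

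Among 9 transcription regulators of the members, 3 rose and 5 fell in mp53/Ras against YAMC, with a median of -0.57, beside 54.6% of all tested. Against bleo/Neo 1 rose and 3 fell, with a median of -0.27. The number that passed there is near the share of all tested probe sets, 51.5%. The stress-response factors Atf3 (-0.99 ± 0.20, adjusted p = 4.17e-05), Ddit3 (-0.72 ± 0.29, 0.0371) and Atf4 (-0.52 ± 0.19, 0.0186) were lower, and the p53 relative Trp73 was higher (0.41 ± 0.06, 2.77e-07). Trp73 was dim, with means of 6.57 in mp53/Ras and 6.15 in bleo/Neo beside the table's median of 6.44. It exceeded that median on only 13 arrays, and how much of its intensity is background was not tested. Foxo3, chosen for mention after its values were seen, did not pass against bleo/Neo (-0.27, 0.153) but fell against YAMC (-1.38, 3.09e-10). The fall against YAMC was not particular to mp53/Ras: Foxo3 differed by -1.11 in bleo/Neo (1.64e-07), -0.92 in mp53 and -0.89 in Ras. Of 20 p53 targets outside the family, 2 rose and 15 fell in mp53/Ras against bleo/Neo, and 13 fell against YAMC with none rising. Their median was -0.41 against bleo/Neo, and the largest falls against it were Perp (-3.86 ± 0.30, 7.5e-16), the death receptor Fas (-1.71 ± 0.12, 3.71e-17), Gadd45a (-1.04 ± 0.28, 0.00156) and Tigar (-0.90 ± 0.09, 3.26e-12). Against YAMC the same genes differed by -2.45, -1.49, -1.10 and -0.46, and bleo/Neo itself was above YAMC by 1.41 for Perp and 0.44 for Tigar. In mp53 alone 1 of the 20 rose and 5 fell against bleo/Neo, and in Ras alone 1 rose and 7 fell. These counts, 6 and 8 of 20, are near the shares of all tested probe sets, 32.7% and 39.1%. Pmaip1 thus fell more than any of these 20 targets in mp53/Ras cells, as a description of the values.

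The genes whose levels followed Pmaip1 most closely were sought over the 50 arrays among 12245 genes by Pearson correlation of log2 levels. They were Arhgap24 (r = 0.98), the epithelial transcription factor gene Grhl3 (0.97), Hey2, a Notch-responsive repressor gene (0.96), the retinoblastoma gene Rb1 (0.96) and Garnl3 (0.95). The 50 points fall into the 5 groups and share their normalisation, so the correlations describe mainly the order of group levels. Arhgap24 averaged 7.0 in mp53/Ras, 10.24 in mp53, 9.22 in Ras, 11.03 in bleo/Neo and 10.79 in YAMC, the same order as Pmaip1.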

How the data were processed

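Intensities were deposited by the authors as 1 table of 50 arrays on a linear scale, and RMA, a robust multi-array summary, is named without a version in the submitters' processing notes. The table's medians lie between 86.4 and 86.7 on every array, with a common highest value. Of 45101 rows, 64 were blank and 45037 had values; nothing on scan dates or detection is given in the sources used here. Of these, 34945 had exactly 1 gene symbol in the platform annotation and 34741 matched the RefSeq gene table by gene number. Arrays have no read depth, and their number limits the precision.

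Values were set to log2 with no offset. All arrays entered a single fit in limma 3.58.1 (R 4.3.3) with 1 coefficient per group, moderation along intensity and p-values adjusted by Benjamini and Hochberg's method over 24458 probe sets in each of 10 comparisons; the fit was tested on simulated data. Probe sets were called at an adjusted p under 0.05. Intervals in the plots are at 95%. All probe sets of the members are described; a gene of another list is read by its brightest probe set, and at most 4 passing genes with the largest differences are named. The 5 genes most like Pmaip1 were ranked among 12245 tested genes other than predicted or clone names. The members and lists were chosen with earlier results of these data known. No arrays held identical values. Alternatives were another filter, an offset of 16, no trend, 1 probe set per gene, a block on replicate number, and leaving out the arrays nearest another group.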

Additional observations from a re-analysis of the deposited data

Results flagged for a closer look

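Of 100 groups of 10 arrays examined (20 probe sets in 5 groups), 14 held a value far from the rest of its group, where chance flags about 1 in 20 groups. Of the 14 values, 3 were arrays labelled 10 in mp53 or Ras. Pmaip1 was 9.84 on Ras array 10, with the next Ras array at 8.83, and Bmf 1454880_s_at was 8.14 there, with the next at 7.07. Bcl2l11 1426334_a_at, below the filter, was 5.23 on mp53 array 10. On mp53/Ras array 10, Bcl2l11 1435448_at was low at 8.06 and Bmf 1454880_s_at at 6.40. Bcl2l11 1456005_a_at was low at 7.86 on mp53 array 8.

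On YAMC array 2, Bid 1448560_at was low at 6.28 and Bik 1449836_x_at high at 7.57. Bid 1448560_at was low at 6.48 on bleo/Neo array 1, and Bid 1447873_x_at at 5.23 on mp53/Ras array 3. Bik 1420363_at was low at 6.91 on YAMC array 5, and Bik 1449836_x_at high at 7.02 on Ras array 4. Bmf 1422995_at was high at 6.06 on mp53/Ras array 6, and Bad 1416582_a_at high at 10.09 on bleo/Neo array 4.

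The difference that went with RasV12 was not the same in cells with and without mutant p53 for 5 probe sets, by the limma test of the non-additive term: Pmaip1 (-1.0), Bcl2l11 1435448_at (-0.46), Bmf 1454880_s_at (-0.53), Bid 1417045_at (0.45) and Bid 1448560_at (0.55). The causes of these values were not tested.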

How the results depend on the processing

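Adding 16 before log2, leaving out the intensity trend, using 1 probe set per gene (80 results) or a stricter filter (140 results) changed no call among the 150 results of member probe sets and comparisons. Testing all probe sets ended 1 call (Bik 1420363_at in mp53/Ras against bleo/Neo, adjusted p = 0.0546). The labels do not say what a replicate number marks. Of 100 same-number pairs of arrays 68 correlated above 0.1. The median was 0.20, beside -0.02 for different numbers, and 25 of 50 arrays were most like their own number. This is a hint from the data that the numbers mark something shared, which the main fit left out. With the replicate number as a block, 146 of 150 results kept their call and 4 newly passed. In Ras against YAMC these were Bid 1448560_at (0.31, adjusted p = 0.043) and Bad 1416583_at (0.37, 0.0291). The others were Bad 1416583_at in mp53/Ras against Ras (0.45, 0.0165) and Bik 1420363_at in bleo/Neo against YAMC (0.14, 0.0384). The last comparison then had 2 member calls, as it did without mp53 10 and Ras 10, where Pmaip1 passed (0.42, adjusted p = 0.0483). With YAMC as the baseline of the non-additive term, 3 members and 11.8% of all tested probe sets passed. Without mp53 10 and Ras 10, 141 of 150 results kept direction and call, 3 newly passed and 2 were lost, and without the 4 arrays nearest another group 125 did, 6 newly passed and 5 were lost.

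Signs turned only for values that had not passed, except Bid 1417045_at with the YAMC baseline, and the cause was not tested. With that baseline the non-additive term became -0.028 for Bid 1417045_at, -0.026 for Bbc3, -0.075 for Bcl2l11 1456006_at, -0.10 for Bid 1447873_x_at, -0.13 for Bik 1420363_at and -0.021 for Bad 1416582_a_at. Without mp53 10 and Ras 10, mp53/Ras against Ras became -0.015 for Bid 1417045_at and 0.022 for Bmf 1454880_s_at, also without the 4 arrays. The term became -0.010 for Bik 1420363_at and -0.023 for Bad 1416582_a_at. Without the 4 arrays, it became -0.049 for Bbc3, -0.017 for Bcl2l11 1456006_at, -0.0062 for Bik 1420363_at and -0.10 for Bad 1416582_a_at. Bcl2l11 1456005_a_at became 0.079 in mp53 against bleo/Neo, 0.031 in mp53 against YAMC and -0.048 in bleo/Neo against YAMC. Bik 1420363_at became 0.0089 in mp53/Ras, Bid 1448560_at 0.0062 in mp53 and Bmf 1458325_x_at -0.0060 in Ras, each against YAMC. In bleo/Neo against YAMC, Bik 1449836_x_at became 0.0090 and Bad 1416582_a_at -0.012. Signal over background limits the dim members and Pmaip1 in mp53/Ras cells.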
